A study of Mus musculus with 3 samples.

Results

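Foxp3 regulatory T cells (Tregs) of the peripheral blood (PB) were examined in naive mice and in mice with leukemia. Foxp3 is the transcription factor that sets the identity of these CD4 T cells, which restrain other immune cells. They take up IL-2 through its high-affinity receptor, whose alpha chain is Il2ra, hold the inhibitory receptor Ctla4, and many carry the zinc finger factor Ikzf2 (Helios). Tregs that have met antigen exchange a resting program of lymph node homing (Ccr7, Tcf7, Lef1) for receptors and adhesion molecules used in tissues, such as Klrg1, the integrin chain Itgae (CD103) and the IL-33 receptor Il1rl1 (ST2).

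The cells were chosen from the counts. A member had at least 200 genes, at most 10% of its unique molecular identifiers (UMIs, 1 per captured transcript) in mitochondrial genes, at least 2 UMIs over Cd3d, Cd3e and Cd3g, at least 1 Foxp3 UMI, at least 3 UMIs over Foxp3, Ikzf2, Ctla4 and Il2ra, none of Cd8a or Cd8b1, and at most 1 of the monocyte genes F13a1 and Fn1. This gave 138 members among 12792 barcodes that passed the same quality filter, of which 78 were naive, 40 came from D11 and 20 from D14. They were set beside 818 Foxp3-negative CD4 T cells, which met the same Cd3, Cd8 and monocyte limits and had at least 1 Cd4 UMI, numbering 671 (naive), 111 (D11) and 36 (D14).

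The leukemic mice had been transplanted with BBC2, a GFP-expressing line of stem cell leukemia/lymphoma syndrome (SCLL) driven by the BCR-FGFR1 fusion kinase. All recipients were young adult female wild type Balb/C mice, and the naive mice received no leukemia. PB was taken at D11, an intermediate stage, and at D14, a late stage, red cells were lysed, dead cells were removed, and 10x Genomics 3′ v3 single-cell libraries were sequenced. There was 1 library per condition and the number of mice behind each was not given in the sources used here, so that condition and library cannot be told apart, no test was possible, and no p-value is given. The libraries held 5386 barcodes and 30362408 UMIs (naive), 8536 and 57640396 (D11), and 9337 and 65861863 (D14). Where 3 values follow each other they are in the order naive, D11 and D14. All intervals are exact 95% intervals and cover counting error only, not differences between mice. Those of summed levels treat each UMI as independent. They leave out differences between cells and are too narrow where few cells hold most UMIs of a gene.

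The members carried their defining genes, which is a description because 4 of them chose the cells. Foxp3, on the X chromosome (GRCm38 chrX:7573644-7595245), stood at 247 CPM (UMIs of the gene per 1000000 UMIs summed over the members of a library) in naive members, 287 at D11 and 254 at D14, with a median of 2 UMIs per member in each library and at most 8, 10 and 7. A single Foxp3 UMI was all that 29, 13 and 6 of the members had. Ikzf2 was found in 72 of 78, 40 of 40 and 18 of 20 members and Ctla4 in 66, 39 and 19. Il2ra was found in 52, 18 and 15. Izumo1r, the folate receptor 4 gene that was not part of the choice, was found in 46, 17 and 10 members and stood at 167, 102 and 120 CPM. Cd4 was found in 59, 25 and 15 members.

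The limit on the summed gate genes turned away few cells. Those with Foxp3 that fell below 3 UMIs numbered 7 (naive), 2 (D11) and 0 (D14), and each of them had 1 UMI. Just inside the limit were 1 member with 3 UMIs (D11) and 1 with 4 (naive), whereas the median member had 33, 32.5 and 68.5. The members were well covered, with a median of 9605.5 UMIs and 3056 genes per naive member, 8063 and 2696 per member at D11, and 10079.5 and 3166 at D14. Free RNA gave Foxp3 few UMIs. In B cells, chosen by their own markers, 0 of 365, 0 of 372 and 6 of 796 held a Foxp3 UMI, at median depths of 6204, 6848.5 and 30671 UMIs, and a count of 0 allows shares of up to 1.01% and 0.987% in the first pair.

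Other lineages left some UMIs in the members, and these values bear on what follows. Hemoglobin genes took 0.824%, 6.13% and 0.0359% of the UMIs of the members, and in the naive library 98.4% of them came from 1 member. In the Foxp3-negative CD4 T cells they took 0.211%, 7.84% and 1.63%. The 6 neutrophil markers summed to 331, 96.7 and 2281 CPM in the members, with S100a8 or S100a9 as the most abundant, and 12 of 20 members at D14 had at least 3 such UMIs against 2 of 78 and 3 of 40, although 1 naive member, 0 at D11 and 1 at D14 had at least 20. The 6 B cell markers summed to 360, 354 and 321 CPM, of which Ighm alone made 265, 333 and 288, with Cd79a, a subunit of the B cell receptor, at 24.0, 8.06 and 4.79 CPM. With Ighm not counted, 59 of 78, 27 of 40 and 2 of 20 members had fewer than 2 UMIs of B cell, neutrophil, platelet or NK markers, and with Ighm counted 31, 9 and 0, so that nearly all D14 values below come from members with such UMIs. The 5 NK cell markers summed to 30.0, 5.37 and 0 CPM and the 2 CD8 markers were at 0 by the choice of cells. A doublet caller would have taken out 4 naive members, 0 at D11 and 1 at D14. Libraries shared 12 (naive and D11), 14 (naive and D14) and 18 (D11 and D14) barcodes, and 1 naive member carried a barcode that also occurred in another library.

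Tregs took a smaller share of the barcodes that passed the filter in the leukemic libraries, but the loss was smaller than that of the other CD4 T cells. They made up 2.05% (1.62 to 2.55%) of these barcodes in naive PB, 0.876% (0.626 to 1.19%) at D11 and 0.453% (0.277 to 0.699%) at D14, which was 0.428 (0.285 to 0.634) and 0.221 (0.128 to 0.366) times the naive share. Foxp3-negative CD4 T cells went from 17.6% to 2.43% and 0.816%, and CD8 T cells from 5.27% to 0.876% and 0.748%. A share of all barcodes depends on how many other cells a library holds, which a ratio between T cells does not. For each Foxp3-negative CD4 T cell there were 0.116 members in naive PB (0.0907 to 0.147), 0.36 in D11 PB (0.245 to 0.522) and 0.556 in D14 PB (0.305 to 0.986), and the naive interval overlapped neither of the others. The comparators needed a Cd4 UMI and the members did not, and the median comparator had 9308, 6962 and 7611 UMIs. Per comparator, members were at 3.1 and 4.78 times naive. With a Cd4 UMI required of both, the member share was 2.28 and 3.67 times naive.

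The share among T cells turned on how a T cell was defined. Of Cd3-positive cells without Cd8, members were 7.06% (5.62 to 8.73%) in naive PB, 7.60% (5.49 to 10.2%) in D11 PB and 6.45% (3.99 to 9.79%) in D14 PB, so that both ratios to naive, 1.08 (0.717 to 1.6) and 0.914 (0.530 to 1.51), spanned equality. Without the cells that had at least 2 UMIs of other lineages, these ratios were 2.40 and 1.93 with Ighm not counted, the second on 2 members, and 1.56 and 0 with Ighm counted. With at least 2 UMIs of the T cell receptor constant genes Trac, Trbc1 and Trbc2 also required, a choice made after seeing the data, members were 8.12% (78 of 961), 18.4% (38 of 207) and 27.4% (20 of 73). With at least 1 Cd4 UMI required, they were 8.01% (59 of 737), 18.2% (25 of 137) and 29.4% (15 of 51), or 2.28 (1.37 to 3.70) and 3.67 (1.94 to 6.56) times naive. The broad denominator held 349, 373 and 254 cells with neither Cd4 nor Foxp3, and 36.4%, 81.5% and 96.9% of these had at least 3 neutrophil UMIs. Their median Cd3 sum was 6, 3 and 3 UMIs, against 19, 14 and 14 in members. Whether those cells are T cells was not tested. With Cd3-positive cells thinned to 2000 UMIs, which left out 11, 11 and 1 shallower cells, the share of the broad denominator was 3.28%, 5.75% and 6.09%.

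**Figure D1:**
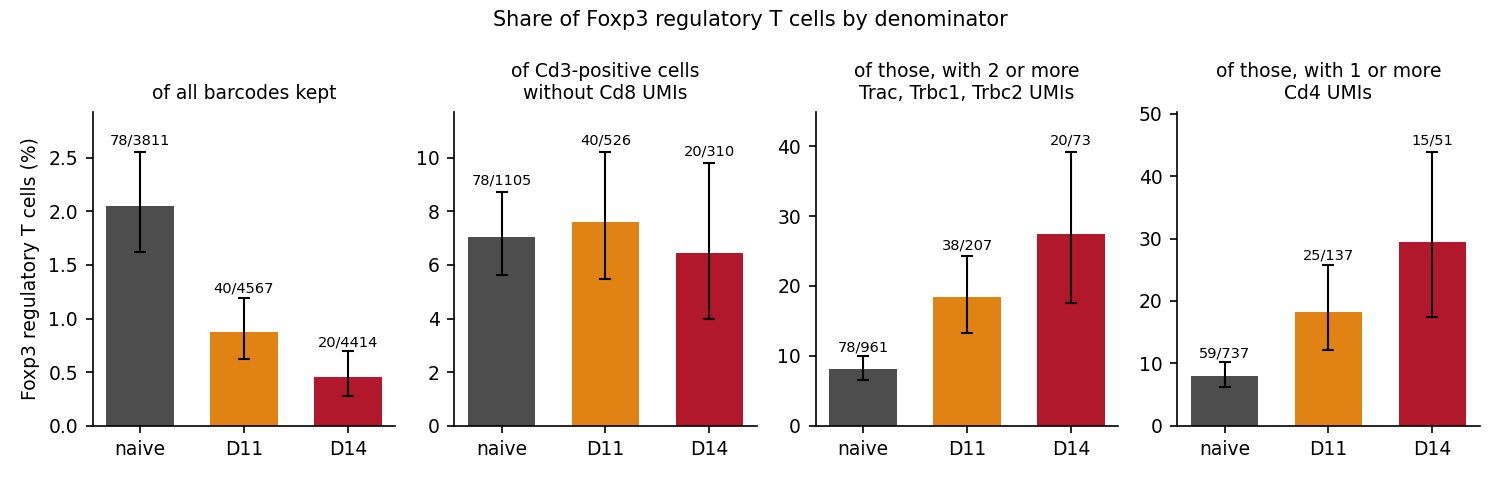
Each panel gives the share of Foxp3 regulatory T cells (percent, from 0) in the naive, D11 and D14 libraries for 1 denominator, with 95% Clopper-Pearson intervals as error bars. The share of all barcodes went down from 2.05% to 0.453%, that of Cd3-positive cells without Cd8 stayed between 6.45% and 7.60%, and that of cells with a Cd4 UMI went up from 8.01% to 29.4%.

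Members were then set against the Foxp3-negative CD4 T cells of their own library. A gene was called higher or lower where the CPM ratio was at least 2-fold the same way in 3 of 3 libraries, among genes with at least 100 CPM. Of 2118 genes, 79 (3.73%) were higher and 44 (2.08%) were lower. As the members were chosen on Foxp3, this contrast describes them and supports nothing further.

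Treg receptors and costimulators were higher in members. Of 25 Treg identity genes outside the gate, 11 reached the level and 8 were higher, with none lower. These were Izumo1r, the TNF receptor family members Tnfrsf4 (OX40) and Tnfrsf18 (GITR), the costimulator Icos, Itgae, the inhibitory receptor Klrg1, the G protein regulator Rgs1 and the IL-2 receptor beta chain Il2rb. Tnfrsf18 stood at 158, 183 and 216 CPM in naive, D11 and D14 members and at 27.3, 42.7 and 35.2 CPM in the comparators. Izumo1r was 4.91-fold, 2.79-fold and 2.72-fold higher than in the comparators. Nrp1, a semaphorin co-receptor associated with Tregs of thymic origin, did not meet the call, because it was 4.26 and 1.77 higher on the log2 scale in the naive and D11 libraries and 0.81 (0.16 to 1.47) at D14.

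Klrg1, on chromosome 6, was among the genes with the largest ratios in the 3 libraries pooled. It had 99, 43 and 23 UMIs in 17, 10 and 5 members, which was 28.1-fold (naive) and 18.9-fold (D11) the level of the comparators and at least 12.5-fold at D14, where the comparators held 0 UMIs and a floor of 3 counts over the group was used. Il1rl1 was 23.9-fold, 5.55-fold and 21.2-fold higher, with 106, 68 and 39 UMIs in 31, 26 and 10 members. Lamc1, which codes for the laminin gamma 1 chain, was 31.8-fold, 6.70-fold and 8.61-fold higher, at 259, 376 and 379 CPM. Rapgef5, an activator of Rap GTPases, was 15.0-fold, 6.38-fold and 3.19-fold higher. The ratios of all 4 had lower bounds above 1 in each library, although for D14 the sums were only 208645 UMIs in members and 340938 in comparators. These bounds do not cover differences between cells.

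Of 15 listed suppressive mediators Il1rl1 alone reached 100 CPM. The 15 summed to 352, 478 and 566 CPM in members, which was 2.36-fold (2.06 to 2.69), 2.15-fold (1.74 to 2.66) and 2.88-fold (2.11 to 3.94) the sum in the comparators, with Il1rl1 holding the most UMIs in each library. Over naive the sum was 1.36 (1.12 to 1.64) times at D11 and 1.61 (1.29 to 2.0) times at D14. The cytokine gene Il10 had 0 UMIs in the 3 libraries, which allows up to 4.43, 9.91 and 17.7 CPM, and Ebi3, a subunit of IL-35, had 4, 1 and 1. Tgfb1 had 55, 17 and 14 UMIs and was at 66.0, 45.6 and 67.1 CPM in members against 51.4, 52.4 and 38.1 in the comparators. Gzmb, the cytotoxic protease granzyme B, had 9, 13 and 18 UMIs in 3, 8 and 1 members, so that at D14 a single cell held all of them.

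Among the listed genes, those lower in members were resting, conventional, transcription factor and survival genes. Tcf7, the Wnt pathway factor TCF1 that marks resting T cells, had 167, 37.6 and 28.8 CPM in members against 697, 469 and 490 in comparators, or 4.18-fold, 12.5-fold and 17.0-fold less. Of 13 resting trafficking genes 12 reached the level, of which Tcf7, Lef1 and the lymph node homing receptor Ccr7 were lower and none higher. Of 27 transcription factors 14 reached it, and Satb1, a chromatin organizer, Ikzf1 (Ikaros) and Id2, an inhibitor of E proteins, were lower. The 12 conventional T helper genes had 3 at the level and 2 lower. These were Igfbp4, a binding protein of insulin-like growth factors, with 17, 1 and 0 UMIs in members against 338, 141 and 96.8 CPM in comparators, and Dapl1, with 4, 0 and 0 UMIs against 163, 69.5 and 29.3 CPM. Of the survival genes, 6 of 16 reached the level and Bcl2, which protects from mitochondrial apoptosis, was lower.

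Effector genes were higher in part. Of 28 effector and tissue trafficking genes 15 reached the level, and the calcium-binding S100a4, its relative S100a10 and the chemokine receptor Ccr2 were higher. S100a4 stood at 1001, 2073 and 1395 CPM in members and at 70.5, 795 and 551 in the comparators. The interferon-stimulated genes had 12 at the level and 1 higher, Ifi27l2a, at 2404, 2146 and 1577 CPM against 428, 716 and 578. None was called in either direction among 13 IL-2 and T cell receptor signalling genes, 7 heat shock genes, 11 immediate early genes, 2 cell cycle genes and 11 MHC class I genes that reached the level. Ighm, the mu heavy chain of immunoglobulin, was also higher, at 265, 333 and 288 CPM against 73.0, 52.4 and 132, and was found in 45, 31 and 17 members. The light chain Igkc was found in 10, 6 and 5 members and Cd79a in 4, 3 and 1. In B cells themselves Igkc stood above Ighm, at 6560, 3480 and 1470 CPM against 2580, 1050 and 465, and in members it stood below, at 94.8, 61.8 and 38.3 CPM. In neutrophils Igkc was at 66.5, 57.2 and 93.7 CPM against 50.5, 49.9 and 35.7 for Ighm. In the comparators Igkc was at 74.0, 19.5 and 390 CPM. The source of the Ighm UMIs in members was not tested. At D14 the B cell gate held 796 cells at a median of 30671 UMIs, and whether leukemia cells were among them was not tested.

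The Foxp3-negative CD4 T cells themselves held more effector UMIs in the leukemic libraries, which changed the yardstick. Their 28 effector genes summed to 2749, 7495 and 7779 CPM in the order naive, D11 and D14, and those of the members to 12155, 14127 and 11215. Against the 42, 39 and 17 comparators that also had an S100a4 UMI, a choice made after seeing the data, 29 genes were higher and 18 lower. Satb1 was then at log2 ratios of -0.37, 0.03 and 0.67 and Lef1 at -0.30, 0.22 and 0.11, no longer past the fold. Tcf7 stayed lower, at -1.52, -3.25 and -3.31, as did Id2, at -3.33, -4.46 and -2.03. Tnfrsf4, Tnfrsf18, Izumo1r, Klrg1, Lamc1 and Il1rl1 stayed past the fold in 3 of 3 libraries, whereas Icos, at 0.44, 0.21 and 1.80, did not.

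**Figure D2:**
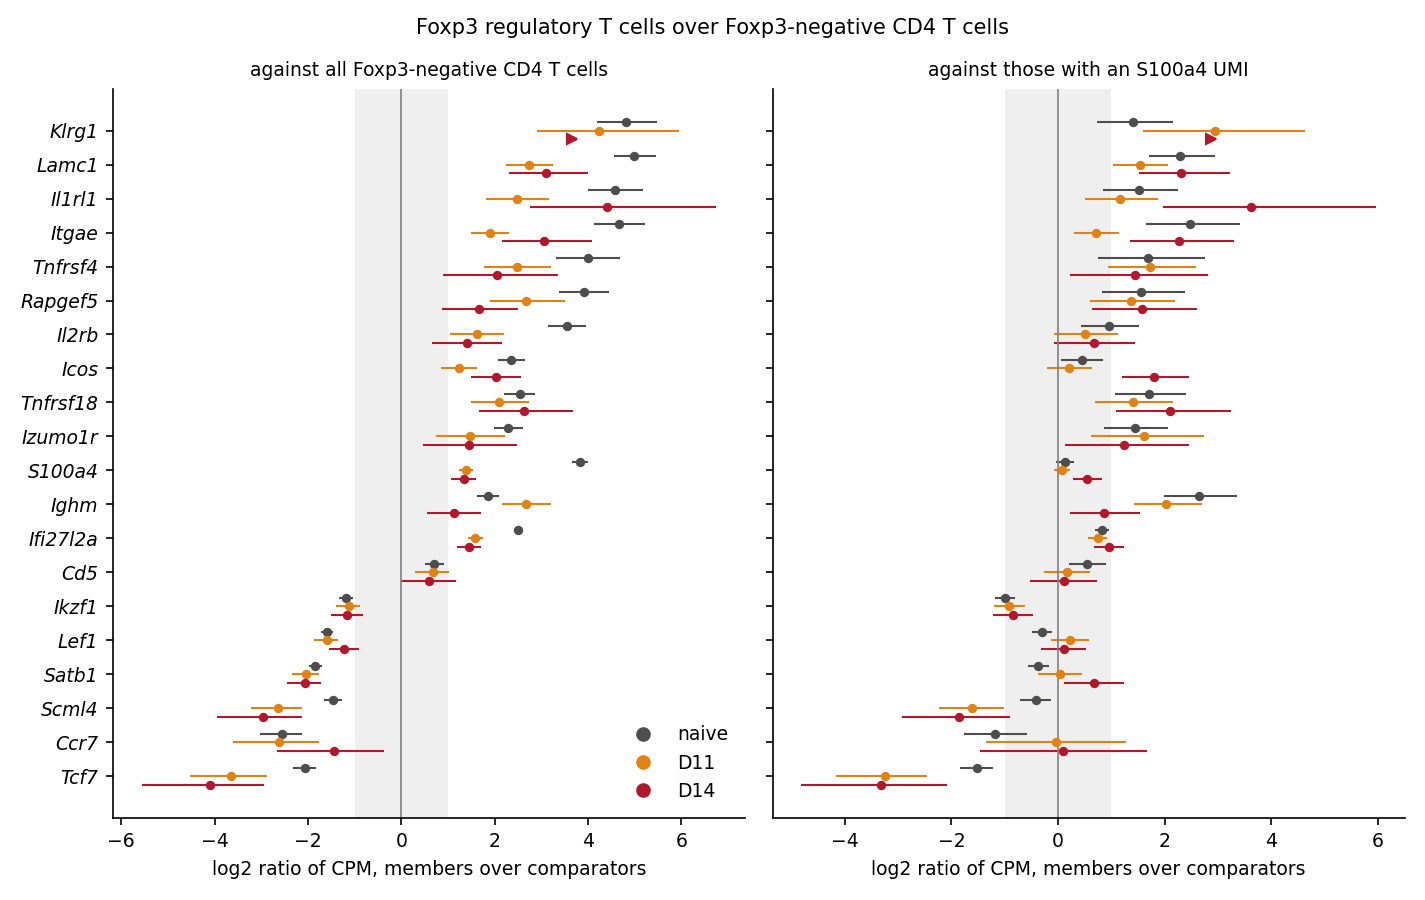
Points give the log2 ratio of CPM in Foxp3 regulatory T cells over Foxp3-negative CD4 T cells for 20 genes, 1 color per library, against all comparators and against those with an S100a4 UMI, with 95% conditional binomial intervals. The grey band marks ratios within 2-fold and the triangle for Klrg1 at D14 is a lower bound against 0 UMIs; against the comparators with S100a4 the points of Satb1 and Lef1 lie near 0 and those of Tcf7 stay below the band.

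The members differed among themselves along the resting and effector genes, which the gate did not use. In each cell the UMIs of the 28 effector genes were given as a percentage of those plus the UMIs of the 13 resting genes. In naive members this share ran from 10.5% to 92.8% with a median of 72.2%. At D11 it ran from 18.6% to 95.7% with a median of 79.7%, and at D14 from 19.2% to 96.3% with a median of 72.9%. The ranges overlapped almost fully, and the lower end was thinned out in the leukemic libraries: the first quartile was 49.6% in naive members, 71.3% at D11 and 67.2% at D14.

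Cells with more effector than resting UMIs were 56 of 78 naive members (71.8%, 60.5 to 81.4%), 37 of 40 at D11 (92.5%, 79.6 to 98.4%) and 19 of 20 at D14 (95%, 75.1 to 99.9%). The comparators had 8.64%, 43.2% and 44.4% of such cells. For members the naive interval overlapped both that of D11 and that of D14. Their median effector share at D14 was within 1 percentage point of naive, and their summed effector genes were 1.16 (1.12 to 1.2) times naive at D11 and 0.923 (0.882 to 0.965) times at D14. Effector shares between 40% and 60%, around the boundary of 50%, were found in 11, 1 and 1 members. Tcf7 was found in 44 of 78 (56.4%), 7 of 40 (17.5%) and 3 of 20 (15.0%) members, and its cells were on both sides of the boundary, with 31 of the naive 44 among the effector-leaning ones. Thinned to 2000 UMIs per cell, Tcf7 was found in 25.4%, 5.0% and 4.75% of members.

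**Figure D3:**
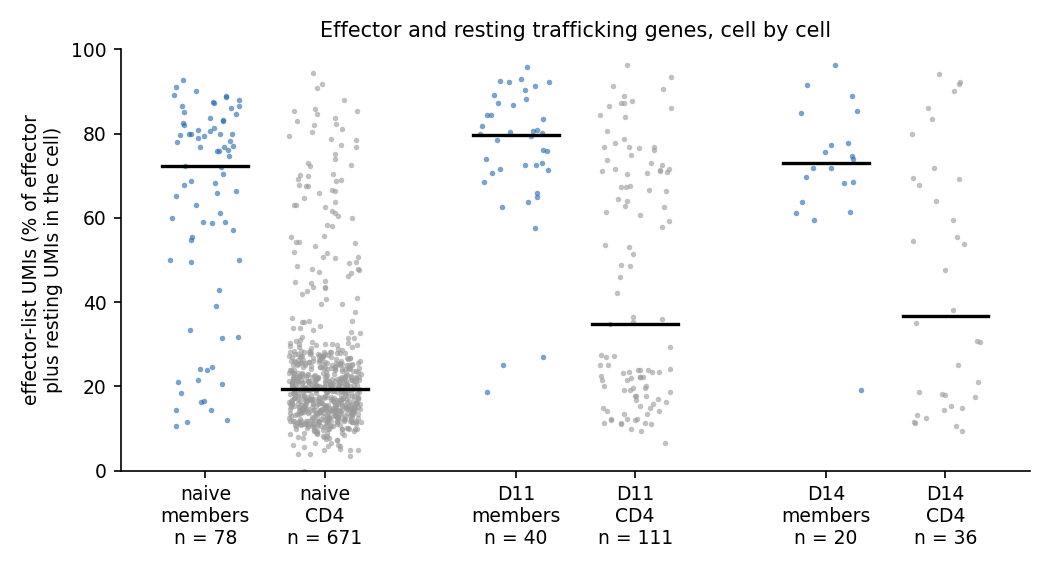
Each point is 1 cell, placed by the percentage of its effector plus resting UMIs that came from the effector genes, for Foxp3 regulatory T cells and Foxp3-negative CD4 T cells in each library, with the median as a black line. The medians of the members lie between 72.2% and 79.7%, and the naive members reach down to 10.5% with more cells in the lower part than at D11 or D14.

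Tissue receptors marked subsets of the members. Itgae was found in 31 of 78 naive members (39.7%), 31 of 40 at D11 (77.5%) and 14 of 20 at D14 (70.0%), and Klrg1 in 17, 10 and 5. With each cell thinned to 2000 UMIs, at which no member was too shallow to use, Itgae was found in 20.6%, 48.8% and 42.2% and Klrg1 in 11.7%, 12.5% and 12.0%. Both together were found in 9, 9 and 4. Members with at least 3 UMIs of 20 cell cycle genes numbered 11, 6 and 5. A T cell receptor beta variable (Trbv) gene was found in 23, 8 and 4 members, which used 12, 6 and 4 different genes, and the most frequent was Trbv13-1, in 6 naive members. The 3′ reads seldom reach the variable gene, and whether members shared a receptor was not tested.

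Changes from naive were counted as past the fold where the CPM ratio, with 1 UMI added to each sum, was at least 2-fold. A minimum of 200 CPM in 1 of the 2 libraries was also required. At D11, 13 of 1013 genes (1.28%) rose and 14 (1.38%) fell. At D14, 53 of 1119 genes (4.74%) rose and 26 (2.32%) fell. The median log2 ratio of all genes was -0.04 and 0.06. With 372406 and 208645 UMIs behind the D11 and D14 sums, single cells carried part of these counts: at D14, 7 of the 53 rises and 5 of the 26 falls had over 50% of their UMIs in 1 member. When the member with the most UMIs of each gene was left out of both libraries, which takes a larger part from the smaller one, 20 of the 53 rises and 19 of the 26 falls at D14 remained, and 8 of 13 rises and 10 of 14 falls at D11. In all, 20 genes then rose and 37 fell at D14, so the larger count turned from rises to falls, and 8 rose and 16 fell at D11. The 2 neutrophil markers that reached the level, S100a8 and S100a9, were among the rises at D14, and the 4 hemoglobin genes that reached it were among the rises at D11 and the falls at D14. The hemoglobin fall rests on 1 naive member, which held 98.4% of the naive hemoglobin UMIs. The median member held 1, 12 and 3 hemoglobin UMIs, so the typical member did not show a fall. The part of neutrophil and hemoglobin RNA in the other changes was not tested.

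Few genes of any list were past the fold, and with so few the shares are not read against the background. At D14 the 15 effector genes that reached the level had a median log2 ratio of -0.11, with 1 rise (Ly6a) and 2 falls (Itga4, Itgb1). The 10 resting genes had a median of -0.54, against 0.06 over all genes tested. In the comparators the median of the resting list was -0.6, so the lower level was not particular to members. Among these 10 were 1 rise (Il7r, only with the added UMI) and 1 fall (Klf2). The 11 transcription factors had 1 rise (Batf) and 1 fall (Bach2), the 13 IL-2 and T cell receptor signalling genes 1 rise (Ptpn22), the 9 immediate early genes 1 rise (Nfkbia) and the 3 survival genes 1 fall (Bcl2). At D11 the rises among the listed genes reported here were Itgae, S100a4 and Nfkbia and the falls were Bach2, S1pr1 and Itga4. None of 6 MHC class I genes and of 5 heat shock genes was past the fold at either stage, and no suppressive mediator or conventional T helper gene reached the level.

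The summed Treg identity genes stayed within 2-fold of naive in members and not in the comparators. The 25 identity genes outside the gate summed to 2647 CPM in naive members, 3072 at D11 and 3173 at D14, or 1.16 (1.08 to 1.25) and 1.2 (1.10 to 1.31) times naive. In the comparators the same sum went from 486 to 1068 and 1062 CPM, or 2.2 (2.04 to 2.37) and 2.18 (1.95 to 2.43) times naive, so that members stood 5.44-fold (5.15 to 5.75), 2.88-fold (2.63 to 3.14) and 2.99-fold (2.62 to 3.41) above them. The 5 Treg markers of the comparators, with Foxp3 at 0 by choice, summed to 164, 613 and 683 CPM, or 3.73 and 4.16 times naive. Ikzf2 was found in 8.05%, 18.0% and 16.7% of the comparators. Whether Tregs without a captured Foxp3 UMI were among them was not tested. Of the 7 identity genes outside the gate that reached the level in members at D14, Icos and Itgae (only with the added UMI) rose and Nrp1 fell. The median log2 ratio over the 7 was 0.41. Icos went from 210 to 311 and 513 CPM and was found in 51 of 78, 34 of 40 and 18 of 20 members. Itgae went from 146 to 368 and 292 CPM, past the fold at both stages. At D14 it passed only with the added UMI and was just below 2-fold without it. Without the top members its D14 log2 ratio was 0.92. Nrp1 went from 509 to 303 and 206 CPM, 2.47-fold lower at D14, and was found in 56, 27 and 9 members. Tnfrsf9, the activation receptor 4-1BB, had 25.2, 21.5 and 149 CPM, below the level set for the count, with 31 UMIs in 9 of 20 members at D14. Foxp3, which the choice of cells bounds from below, was at log2 ratios of 0.22 (-0.13 to 0.56) and 0.04 (-0.43 to 0.48), both within counting error of naive.

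Ly6a, coding for the surface antigen Sca-1 (chromosome 15), had the largest D14 rise among the listed genes that reached 200 CPM. It had 8 UMIs in 4 of 78 naive members, 46 in 11 of 40 at D11 and 49 in 8 of 20 at D14, or 9.60, 124 and 235 CPM. On the log2 scale D11 members were 3.69 (2.59 to 4.98) above naive and D14 members 4.61 (3.52 to 5.90). Thinned to 2000 UMIs, 1.99%, 13% and 18.8% of members had it. A single member held 23 of the D11 and 32 of the D14 UMIs, and without the top members the D14 value was 3.58. In the comparators Ly6a had 8, 1 and 0 UMIs, or 1.25, 1.22 and 0 CPM, so that no rise was seen in them. So few UMIs could not show a fall. It was in 5.13% of naive members against 0.894% of comparators, and B cells, which serve as background, had it in 0 of 365 cells (up to 1.01%), 1.08% and 1.13%.

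Nfkbia, Batf, Ptpn22 and Il7r also rose past the fold. Nfkbia, the NF-kB inhibitor that NF-kB itself induces, had 245, 505 and 527 CPM and was found in 65 of 78 (83.3%), 34 of 40 (85.0%) and 17 of 20 (85.0%) members, or in 37.8%, 53.6% and 58.2% after thinning to 2000 UMIs. Over naive this was 1.04 (0.75 to 1.34) on the log2 scale by D11 and 1.11 (0.76 to 1.45) by D14. Without the top members it was 0.99 and 0.97, just inside the 2-fold limit. In the comparators it was at 175, 188 and 226 CPM. Of the 26 interferon-stimulated genes 5 reached the level at D11 and 6 at D14, with 1 rise and no fall at each stage and median log2 ratios of 0.16 and 0.51. All 26 summed to 4794, 5140 and 4764 CPM in members, with Ifi27l2a holding the most UMIs in each library. Batf, an AP-1 factor of effector Tregs, had 54.0, 99.4 and 244 CPM and rose past the fold at D14, found in 27, 23 and 13 members. Ptpn22, a phosphatase of T cell receptor signalling, went from 164 to 185 and 460 CPM, and Il7r, the IL-7 receptor alpha chain, from 411 to 497 and 820. Il7r passed the fold only with the added UMI and was just below 2-fold without it. Its D14 log2 ratio was 0.94 without the top members. By the rule for named genes, Ern1, the endoplasmic reticulum stress sensor IRE1, rose from 45.6 to 113 and 288 CPM and Rilpl2, a regulator of ciliary membrane traffic, from 46.8 to 148 and 235.

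The promoter of Nfkbia is shown because its summed level rose at both stages, and it comes from the RefSeq promoter table (GRCm38.p6). It covers 250 bases before and 50 bases after the gene start on the minus strand, at chr12:55492598-55492897 of GRCm38, and capitals mark the match to the kappa B form GGGNNNTTCC, which here lies on the opposite strand. This form was searched on both strands and occurs in 5.56% of 32851 promoters of the same length, and the AP-1 form TGANTCA (7.81% of promoters) had no match in this window. A match of letters is not a measured binding site.
Nfkbia: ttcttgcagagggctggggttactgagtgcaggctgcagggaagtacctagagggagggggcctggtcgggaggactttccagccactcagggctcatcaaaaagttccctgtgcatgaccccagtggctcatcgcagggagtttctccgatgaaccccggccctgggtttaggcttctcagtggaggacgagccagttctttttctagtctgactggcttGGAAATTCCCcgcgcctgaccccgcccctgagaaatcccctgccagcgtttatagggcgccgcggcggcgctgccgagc

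Other rises by the rule rested on few cells. Pde7b, a cAMP phosphodiesterase, had 4, 2 and 47 UMIs, and those at D14 came from 2 members. Slc24a3, a sodium/calcium exchanger, had 44 of its 48 D14 UMIs in 1 member. Outside the rule, the listed heat shock genes Hspa1a and Hspa1b had 0, 1 and 21 UMIs and 2, 5 and 23 UMIs, found in 5 and 6 of the 20 members at D14, below the level set. Both were also higher at D14 than in naive PB in other cells: Hspa1a stood at 0.627, 6.10 and 17.6 CPM in the comparators and 4.45, 20.5 and 117 in neutrophils, and Hspa1b at 1.88, 14.6 and 93.9 and at 5.50, 28.4 and 163.

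Of the listed genes that reached 200 CPM, Bcl2, Bach2, Itga4, Itgb1 and Klf2 fell past the fold to D14, beside Nrp1 and the hemoglobin genes. The fall of the hemoglobin genes rests on 1 naive member, which held 98.4% of the naive hemoglobin UMIs. Tcf7, below 200 CPM at 167 CPM in naive members, stood at 37.6 CPM at D11 and 28.8 CPM at D14. Bcl2 went from 415 to 271 and 110 CPM, and it was found in 35 of 78 (44.9%), 4 of 40 (10.0%) and 3 of 20 (15.0%) members, with 21 of the 23 UMIs at D14 in 1 cell. Thinned to 2000 UMIs, it was found in 27.6%, 7.75% and 7.75%. Bach2, a repressor that keeps T cells quiescent, went from 846 to 371 and 254 CPM, which on the log2 scale is -1.19 (-1.47 to -0.93) and then -1.74 (-2.17 to -1.33), whereas the comparators kept 1678, 1351 and 1613. Scml4, a Polycomb-related gene, had 265, 85.9 and 57.5 CPM, and Igf1r, the receptor of insulin-like growth factor 1, had 286, 226 and 76.7. The integrin chains Itga4 and Itgb1 went from 691 to 266 and 254 CPM and from 1217 to 937 and 580 CPM. Klf2, which maintains S1pr1 and so exit from lymphoid tissue, went from 617 to 575 and 302 CPM, past the fold at D14 only, and S1pr1 from 295 to 129 and 153 CPM, past it at D11 only. Hist1h1b, a histone gene of dividing cells, had 172 of its 181 naive UMIs in 1 member.

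These changes were also computed without the resting-leaning members, which were fewer in the leukemic libraries. In the 56, 37 and 19 members with more effector than resting UMIs, a subset taken after seeing the data, Bach2 was at 401, 234 and 197 CPM. Its log2 ratio was -0.78 (-1.15 to -0.42) at D11, no longer past the fold, and -1.03 (-1.55 to -0.54) at D14. Both falls of Bach2 were smaller than in all members. Bcl2 was at 78.8, 98.8 and 10.1 CPM in them, where the last value is 2 UMIs, and on the log2 scale it was 0.33 (-0.34 to 0.98) over naive by D11, opposite in sign to all members, and -2.97 (-6.05 to -1.04) by D14. At D14 Scml4 was at -2.09 in these members and -2.21 in all, and Igf1r at -2.24 and -1.90. The values of Nrp1 (-1.25), Batf (1.95), Icos (1.03) and Nfkbia (1.22) at D14 were close to those in all members. Itgae was at 184, 378 and 307 CPM, which is 1.04 at D11 and 0.74 (0.27 to 1.2) at D14.

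**Figure D4:**
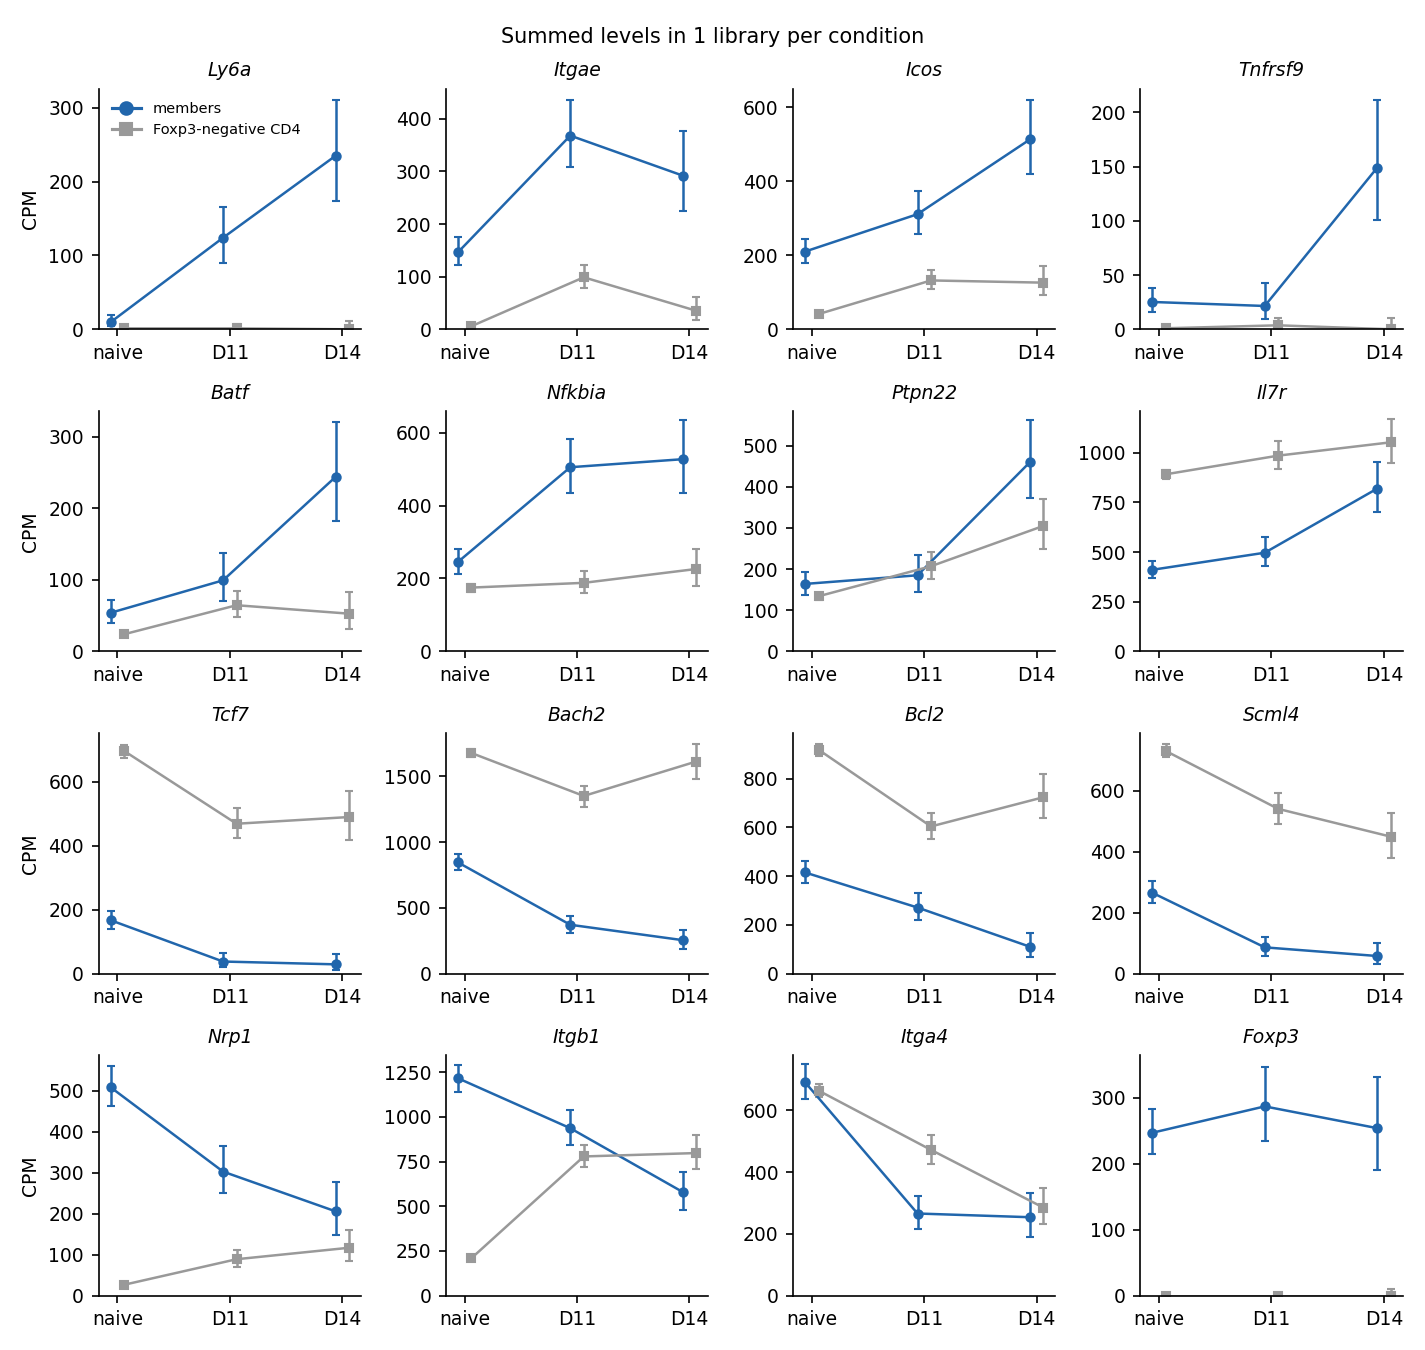
Summed levels (CPM, each panel from 0) of 16 genes in the naive, D11 and D14 libraries, in Foxp3 regulatory T cells and in Foxp3-negative CD4 T cells, with exact Poisson 95% intervals. In the members Ly6a, Batf, Icos and Nfkbia are higher at both stages than in naive PB, Bach2, Scml4, Nrp1 and Itga4 are lower, and Foxp3 stays between 247 and 287 CPM in members.

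The Foxp3-negative CD4 T cells of the same libraries changed in part alike. Among them 60 of 990 genes rose and 15 fell at D14, and 30 and 14 of 917 at D11. Of the 53 genes that rose in members at D14, 34 were at least 2-fold up in the comparators as well and 2 had the opposite sign. Of the 26 that fell, 4 were at least 2-fold down in the comparators and 10 had the opposite sign. At D11, 8 of 13 rises were at least 2-fold up in the comparators and 3 had the opposite sign, and 6 of 14 falls were at least 2-fold down and 0 had the opposite sign. These counts include 4 hemoglobin genes. They were among the rises at D11, with median log2 ratios of 2.92 in members and 5.26 in the comparators. At D14 they were among the falls in members, with medians of -4.56 and 2.77. Icos was up by 1.62 on the log2 scale in the comparators at D14 and Batf by 1.14, so these rises were shared in direction. For Nrp1 and Itgb1 the comparators were up by 2.14 and 1.93 while the members fell. The Treg markers of the comparators also rose, from 164 CPM in naive PB to 683 CPM at D14, and their part in these values was not tested. In the 2 D14 members left without other-lineage UMIs (Ighm not counted), Nrp1 was at -0.63 and Itgb1 at 0.39, so that the opposite sign of Itgb1 did not hold there. No test of these differences was possible with 1 library per condition. Other-lineage RNA also rose in the comparators: their 6 neutrophil markers summed to 554, 1734 and 3658 CPM (6.6 times naive at D14, 6.18 to 7.04), with S100a9 the most abundant, and 5.81%, 15.3% and 58.3% of them held at least 3 neutrophil UMIs. Their 6 pro-B leukemia markers summed to 6.42, 35.4 and 452 CPM, with Cd24a the most abundant and 2, 4 and 2 of the markers at 0. The part of this RNA in the rises that members and comparators shared was not tested.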

How the data were processed

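PB leukocytes were measured in 1 library per condition (naive, D11, D14), grouped from the labels. The authors prepared libraries with 10x Genomics 3′ v3 reagents and deposited filtered Cell Ranger matrices of raw UMI counts aligned to mm10. The matrix header names Cell Ranger 5.0.1 and the submitters' processing notes 7.1.0. Positions are from GENCODE vM21 (GRCm38), which held 32158 of 32285 features, and symbols naming more than 1 identifier (38) were left out of rankings.

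UMIs were summed over cells and scaled to CPM, with exact Poisson intervals, conditional binomial intervals for ratios and Clopper-Pearson intervals for shares (scipy 1.17.1, Python 3.11.15), all at 95%. A ratio against 0 UMIs used a floor of 3 counts. Genes named beyond the lists were the 10 highest and 5 lowest of members over comparators and the 5 largest rises and falls to D14 whose D11 value had the same sign, with 1 UMI added. B cells and neutrophils used as background had at least 3 and 20 UMIs of their markers. Doublets were scored with Scrublet (scanpy 1.11.5) and kept in the values reported. Alternatives were other filters, gates, denominators, comparators, minimum levels and scalings, edgeR 4.0.16 (R 4.3.3) TMM factors included. The ratio procedure was run on simulated Poisson sums with known folds. These hold no differences between cells, so the run cannot show how the intervals perform where few cells hold most UMIs. The members and lists were chosen with earlier results of these data known. Some listed genes are not reported here.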

Additional observations from a re-analysis of the deposited data

Results flagged for a closer look

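Genes at 200 CPM or more that moved one way in members and the other way in Foxp3-negative CD4 T cells at D11 and at D14 are given here, and with 1 library per condition the difference was not tested. At D14 over naive, Nrp1 was at a log2 ratio of -1.30 in members and 2.14 in comparators. Itgb1, the integrin beta 1 chain, was at -1.07 and 1.93. Igf1r was at -1.90 and 0.51. With cells that had other-lineage UMIs left out (Ighm not counted), the 2 D14 members that remained gave -0.63 for Nrp1, 0.39 for Itgb1 and 0.69 for Igf1r, so that the opposite sign of the last pair did not hold. Klf6, a Krüppel-like factor, was at -0.80 and 0.41, and Ifi27l2a at -0.61 and 0.43, both within 2-fold in either kind of cell. In the naive library Nrp1 stood at 509 CPM in members and 26.6 in comparators and Itgb1 at 1217 and 209, so that the levels of the 2 kinds of cell were closer at D14 than in naive PB. The share of comparators with more effector than resting UMIs rose from 8.64% to 44.4% between these libraries, and their summed Treg markers from 164 to 683 CPM. The part of either in the values of the comparators was not tested.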

How the results depend on the processing

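Each condition had 1 library, so sampling of mice could not be assessed, and no paired analysis was possible because there is 1 library per condition, so that the groups share fewer than 2 replicate numbers. The D14 values rest on 20 members and 208645 UMIs, where a gene at 200 CPM has few UMIs. For single genes, 628 of 711 values over 48 results stayed within the counting interval of the value reported, 74 moved outside it and 9 reversed. For ratios of shares and sums (counting interval) and counts of genes (1.5 times), 85 values stayed within and 22 did not.

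The share of Cd3-positive cells without Cd8 was 1.08 (D11) and 0.914 (D14) times naive, both intervals spanning 1, and its side of 1 turned with the denominator and, at D14, with the lineage UMIs allowed. It was 2.28 and 3.67 with a Cd4 UMI required, 2.26 and 3.38 with T cell receptor UMIs, 0.428 and 0.221 of all barcodes, and 1.75 and 1.86 after thinning. Leaving out cells with at least 2 UMIs of B cell, neutrophil, platelet or NK markers left 31, 9 and 0 members, a D14 ratio of 0, 229 genes past the fold at D11 and no D14 gene values. With Ighm not counted, 59, 27 and 2 members remained, the ratio at D11 was 2.40 and at D14 1.93, 19 genes were lower than in comparators, 679 passed the fold at D14, and with so few cells Lamc1 (-0.89), Dapl1 (2.43), Igf1r (0.69), Tcf7 (1.36) and Itgb1 (0.39) reversed at D14.

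Against 79 genes higher and 44 lower, lower minimum levels gave 120 higher, comparators without Cd4 125 and 128, and comparators with S100a4 29 and 18, where Auts2 (0.11) reversed. The lower minimum gave 77 and 199 changes at D11 and D14 against 27 and 79. With at least 2 Foxp3 UMIs Slc24a3 reversed (-0.54). With the top member left out Slc24a3 (-0.07) and Gzmb (-0.32) reversed and the summed identity genes at D14 were 1.04 times naive against 1.2.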
